A study of Mus musculus with 56 samples.

Results

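The genes described here encode the proteins of the cytosolic ribosome, Rpl genes for the large (60S) and Rps genes for the small (40S) subunit. Members were the genes whose symbol is Rpl or Rps (Rplp and Rpsa included) followed by a number or the end of the name, with pseudogenes, Riken clones and the S6 kinases (Rps6k) left out. In the 56 ChIP-seq peak lists 85 such names occurred among 20352 named genes, and 5631 of 1610519 peaks carried them. A peak carries the name of the nearest gene start, so a second set was also used, the 89 members with a span in RefSeq (374 to 16779 bases long, median 3183) and every peak lying over that span. The 2 sets differ: 2476 of the 5631 named peaks (44.0%) lay over the gene they are named for, 1704 (30.3%) were annotated to a promoter and 1549 (27.5%) were intergenic.

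The study asked how IL-4 changes transcription and the chromatin of mouse macrophages, and how an earlier exposure to IL-4 alters the response to lipopolysaccharide (LPS). Bone marrow-derived macrophages (BMDMs) of C57BL/6 wild-type mice, grown for 6 days in L929 cell supernatant, were used in every group. In the first experiment cells were untreated or received 20 ng/ml IL-4 for 1 hr, and 8 antibodies were applied: RNAPII-pS5 and RNAPII-pS2 (RNA polymerase II phosphorylated at serine 5, the form near starts, and at serine 2, the elongating form), H3K27Ac (a histone mark of active promoters and enhancers), the myeloid factor PU.1, the acetyltransferase p300 and the deacetylases HDAC1, HDAC2 and HDAC3. In the second experiment cells were left alone or pretreated with 20 ng/ml IL-4 for 24 hr and then left alone or given 100 ng/ml LPS for 1 hr (named IL-4 PT/LPS for both, IL-4 PT/ctrl or ctrl/LPS for one agent, and ctrl/ctrl for neither), with RNAPII-pS5, RNAPII-pS2 and p65, the NF-κB subunit. Each group held 2 samples per antibody. A MACS2 score, close to −log10 of a p- or q-value, stands beside each peak, and for H3K27Ac a normalized tag count in a region of 1001 bases. A bulk ChIP score cannot tell fewer cells with a bound gene from less binding per cell.

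Ribosomal proteins are made in equal numbers from genes scattered over the genome, and they are among the most transcribed genes of a growing cell. Their promoters are short, typically start within a run of pyrimidines, and the mRNAs that begin there are translated under the control of mTOR. Macrophages raise protein synthesis when activated, and both IL-4 and LPS are known to act on mTOR signalling. Polymerase that has passed the polyadenylation site keeps transcribing for some distance before it is released, so polymerase is often found past the 3′ end of highly transcribed genes.

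The libraries held 9 to 75 named members each. The marker genes of macrophages carried RNAPII-pS5 peaks in 7 of 10 cases in all 12 files, while 2 of the 10, Spi1 and Adgre1, had none in any. No B cell, fibroblast or epithelial marker gene had a RNAPII-pS5 peak in any file. Of 4 T cell marker genes 2 had RNAPII-pS5 peaks in all 12 files (summed score 17.09 to 197.9, against 142.8 to 620.5 for macrophage markers; Cd3e and Cd8a had none), and 1 of 2 erythroid marker genes had a peak in some files (0 to 51.5; Gata1 had none); their part in the results was not tested. The p300 untreated replicate 1 stood apart from the other 3 p300 samples, with 44787 peaks and a median log2 score of 4.29 against 6.00 to 6.04. In the RNAPII-pS2 samples of the 1 hr experiment the peak names contradict the sample labels: all 16689 and 20677 peaks of the libraries labelled untreated are named for IL-4, and all 16479 and 19492 of the libraries labelled IL-4 are named for vehicle. The IL-4 target gene Cish differed by −5.04 on the log2 scale in the labelled direction there, so these libraries are named by their labels and no direction is read from them. In ctrl/LPS against ctrl/ctrl the named RNAPII-pS2 score rose at Cxcl2 (5.07), Cish (2.99), Socs1 (1.39), Ccl4 (0.99), Nfkbia (0.72) and Tnf (0.57). It fell at Il1b (−4.34) and Arg1 (−0.64), and Il1b rose in IL-4 PT/ctrl against ctrl/ctrl (1.24). The paper reports LPS-induced RNAPII-pS2 at Il1b that pretreatment lowers, and why the named score differs was not tested. The HDAC3 samples give the catalogue number that H3K27Ac has. The methods text of the paper repeats it, while the paper's list of reagents gives HDAC3 a catalogue number of its own. In the fits each missing peak, also one of a single sample, was set to the lowest score of that antibody. A fitted change that includes a missing peak then depends on this floor.

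In untreated cells the ribosomal protein genes carried high RNAPII-pS5. A RNAPII-pS5 peak lay over 76 of the 89 genes in both untreated replicates (85.4%, against 51.3% of all 21887 protein-coding genes), and the highest peak of these 76 genes stood at a median percentile of 88.4 among all genes with a peak in both replicates, with 34 at or above the 90th percentile and 6 below the 50th. Large-subunit genes (median percentile 89) and small-subunit genes (85.6) had like levels, and genes for mitochondrial ribosomal proteins stood at 70.3. The highest scores were those of Rps27 (178.1 and 165.6 in the 2 untreated replicates), Rps12 (159.4 and 149.2) and Rpl34 (176.1 and 130.6). The lowest were those of Rps29 (23.72 and 13.16), Rpl35 (23.58 and 18.14) and Rpl36 (36.55 and 28.76), so members differed by far more than replicates. Rps3, which lines the mRNA entry channel, scored 149.9 and 146.2. Rplp0, the base of the acidic stalk, scored 113.6 and 123.0, and Rpsa, also known as a laminin receptor, 66.02 and 38.94. The rank was lower in the ctrl/ctrl cells of the second experiment. There RNAPII-pS5 lay over 55 members in both replicates (61.8%, against 32.2% of all genes). Their median percentile was 64.7, with 6 above the 90th and 20 below the 50th. In all 12 RNAPII-pS5 files 38 members had a peak over the gene.

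The other antibodies ranked these genes lower. H3K27Ac covered 72 of the 89 members in both untreated replicates (80.9%, against 49.4% of all genes) at a median percentile of 68.7, highest at Rpl18 (648.3 and 608.9 tags), Rpl10a (615.5 and 561.7) and Rpl19 (474.9 and 440.8) and lowest at Rps20 (79.2 and 81.5), Rps24 (82.9 and 80.3) and the paralog Rpl22l1 (88.7 and 88.1). HDAC1 covered 58 members (65.2%, against 40.3%) at a median percentile of 38.6, with the highest scores at Rpl4 (23.89 and 37.11), Rpl14 (24.84 and 32.33) and Rplp1 (23.95 and 24.54). PU.1, the factor that marks myeloid enhancers, covered 21 members (23.6%, against 38.6% of all genes) at a median percentile of 34.5. HDAC2 covered 3 members (3.37%, against 23.4%), and HDAC3 covered Rpl18 alone. Among the 76 members with RNAPII-pS5, 27.6% also had PU.1 and 3.95% HDAC2, while 61.0% and 42.7% of all genes with RNAPII-pS5 did. For H3K27Ac the shares were 89.5% and 88.0%, for HDAC1 75% and 74.8%, for RNAPII-pS2 55.3% and 53.3% and for p300 61.8% and 76.7%.

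**Figure D1:**
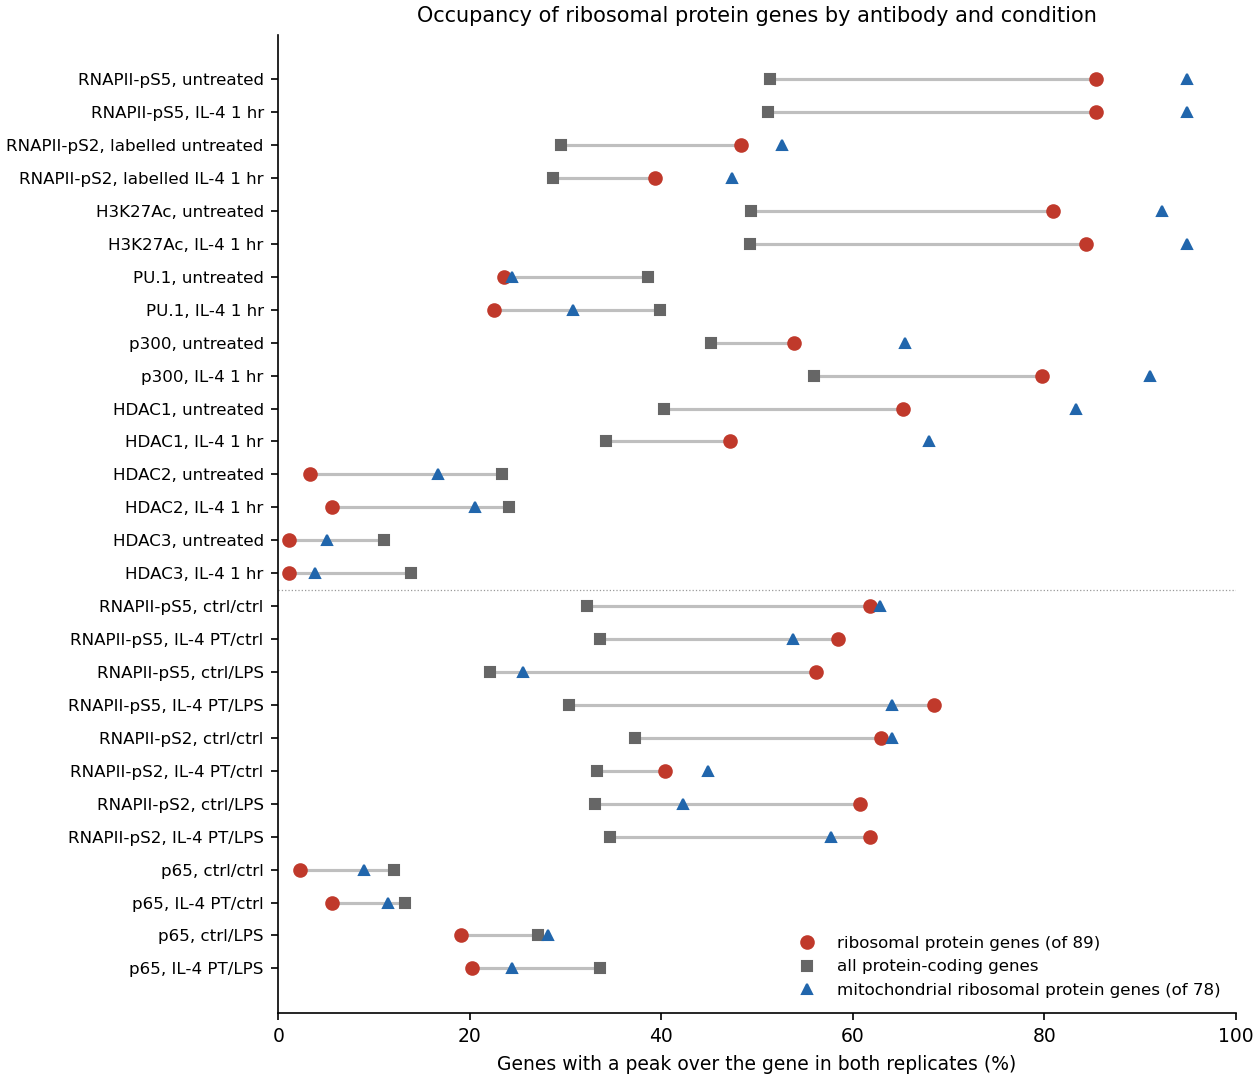
Share of genes with a peak over the gene in both replicates (horizontal axis, %) for each antibody and condition (vertical axis). Red circles are the 89 ribosomal protein genes, blue triangles the mitochondrial ribosomal protein genes and grey squares all protein-coding genes; the red circles lie right of the squares for RNAPII-pS5, RNAPII-pS2, H3K27Ac, p300 and HDAC1 and left of them for PU.1, HDAC2, HDAC3 and p65.

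Promoter sequences from 250 bases before to 50 after the start were at hand for 57 members with canonical names (RefSeq, GRCm38.p6) and were searched on both strands, except for the start motif. The ETS motif CCGGAAG was in 40.4% of them and in 9.12% of all 27025 promoters, and in 36.2% of those of mitochondrial ribosomal protein genes. A polypyrimidine start (CTTTC or CTTTT, on the gene's strand within 10 bases of the start) was in 26.3%, against 5.44% of all and 1.45% of the mitochondrial class. The CRE core TGACG was in 50.9% (21.0% of all), the SP/KLF box GGGCGG in 59.6% (35.9%), the YY1 core AAGATGG in 14.0% (6.48%), the NRF1 core GCATGCG in 7.02% (3.64%), TATAAA in 8.77% (14.2%), the PU.1 core GAGGAAG in 17.5% (13.5%) and the NF-κB core GGGANTTTC in 0 of 57 (1.15%). In the mitochondrial class the CRE core was in 42.0%, the SP/KLF box in 49.3%, YY1 in 18.8% and NRF1 in 11.6%. Median GC content was 58.0% in members, 58.3% in the mitochondrial class and 52.7% in all promoters. The promoters printed here, from 120 bases before to 20 after the start, are those of 5 members whose polymerase or H3K27Ac values are described further on, and capitals mark matches to the ETS, CRE, SP/KLF and polypyrimidine motifs on either strand.
Rplp2, chr7:141447531-141447670, + strand: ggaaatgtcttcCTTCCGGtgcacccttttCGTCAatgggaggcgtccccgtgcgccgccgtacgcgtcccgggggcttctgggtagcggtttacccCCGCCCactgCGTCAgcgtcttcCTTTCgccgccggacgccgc
Rps18, chr17:33955646-33955785, − strand: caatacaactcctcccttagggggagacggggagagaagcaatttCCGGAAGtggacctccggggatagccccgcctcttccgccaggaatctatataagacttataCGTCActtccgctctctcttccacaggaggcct
Rpl37, chr15:5116493-5116632, + strand: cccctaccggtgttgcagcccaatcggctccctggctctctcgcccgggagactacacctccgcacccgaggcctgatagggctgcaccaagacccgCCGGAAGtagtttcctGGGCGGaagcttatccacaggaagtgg
Rpsa, chr9:120127646-120127785, + strand: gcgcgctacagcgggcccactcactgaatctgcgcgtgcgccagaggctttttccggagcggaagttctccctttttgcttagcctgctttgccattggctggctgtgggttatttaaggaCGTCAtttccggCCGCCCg
Rps15, chr10:80292311-80292450, + strand: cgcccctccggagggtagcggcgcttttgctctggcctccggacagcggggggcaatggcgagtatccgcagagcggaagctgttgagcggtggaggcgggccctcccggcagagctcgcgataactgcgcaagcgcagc
Rplp2 holds all 4 motifs, the start one at its first base. Rps15 holds none of them in this window.

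Pretreatment with IL-4 went with polymerase peaks past the 3′ end of ribosomal protein genes. The measure, chosen after the values were seen, was the sum of scores of peaks centred 1 to 2000 bases past the end of the RefSeq span, for the 86 members whose strand could be set (Rpl17, Rpl29 and Rpl36 could not). RNAPII-pS2 had such a peak at 36 and 35 members in the 2 ctrl/ctrl replicates and at 60 and 63 in the IL-4 PT/ctrl replicates. With LPS the counts were 27 and 28 in ctrl/LPS and 65 and 62 in IL-4 PT/LPS, so both pretreated groups lay above both others without overlap. The share of all 19768 genes with a strand moved far less, from 10.4% and 10.2% in ctrl/ctrl to 13.5% and 14.5% in IL-4 PT/ctrl, and from 7.82% and 7.8% in ctrl/LPS to 11% and 10.9% in IL-4 PT/LPS. RNAPII-pS5 also lay higher in the pretreated samples at each LPS state: 40 and 37 members in ctrl/ctrl, 64 and 67 in IL-4 PT/ctrl, 24 and 27 in ctrl/LPS and 57 and 57 in IL-4 PT/LPS. The share of all genes with such a RNAPII-pS5 peak is not given here. At its highest point past the end, RNAPII-pS5 covered 5.3% and 4.85% of all genes in ctrl/ctrl and 6.22% and 6.32% in IL-4 PT/ctrl. With LPS it covered 3.36% and 3.5% in ctrl/LPS and 4.44% and 4.5% in IL-4 PT/LPS. At most 4 members had a p65 peak in this window in any of the 8 p65 samples. The total number of RNAPII-pS2 peaks did not follow this order, at 26983 and 26837 in ctrl/ctrl and 25838 and 27488 in IL-4 PT/ctrl, while that of RNAPII-pS5 peaks was lowest in ctrl/LPS too, with 14476 and 15349 peaks in ctrl/LPS and 17826 to 22149 in the other groups.

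These peaks gathered about 1000 bases past the end. At its highest point the cover of members by RNAPII-pS2 reached 60.5% and 62.8% in IL-4 PT/ctrl, 1100 and 1000 bases past the end, and 30.2% and 25.6% in ctrl/ctrl, 1000 and 800 bases past it. In ctrl/LPS it reached 19.8% and 20.9%, and in IL-4 PT/LPS 58.1% and 55.8%. At 500 bases before the end, inside the gene, cover was 1.16% to 5.81% in all 8 samples. At 2500 bases past the end it was 11.6% and 17.4% in IL-4 PT/ctrl and 3.49% to 4.65% in the other 6, so in pretreated unstimulated cells cover also reached farther.

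**Figure D2:**
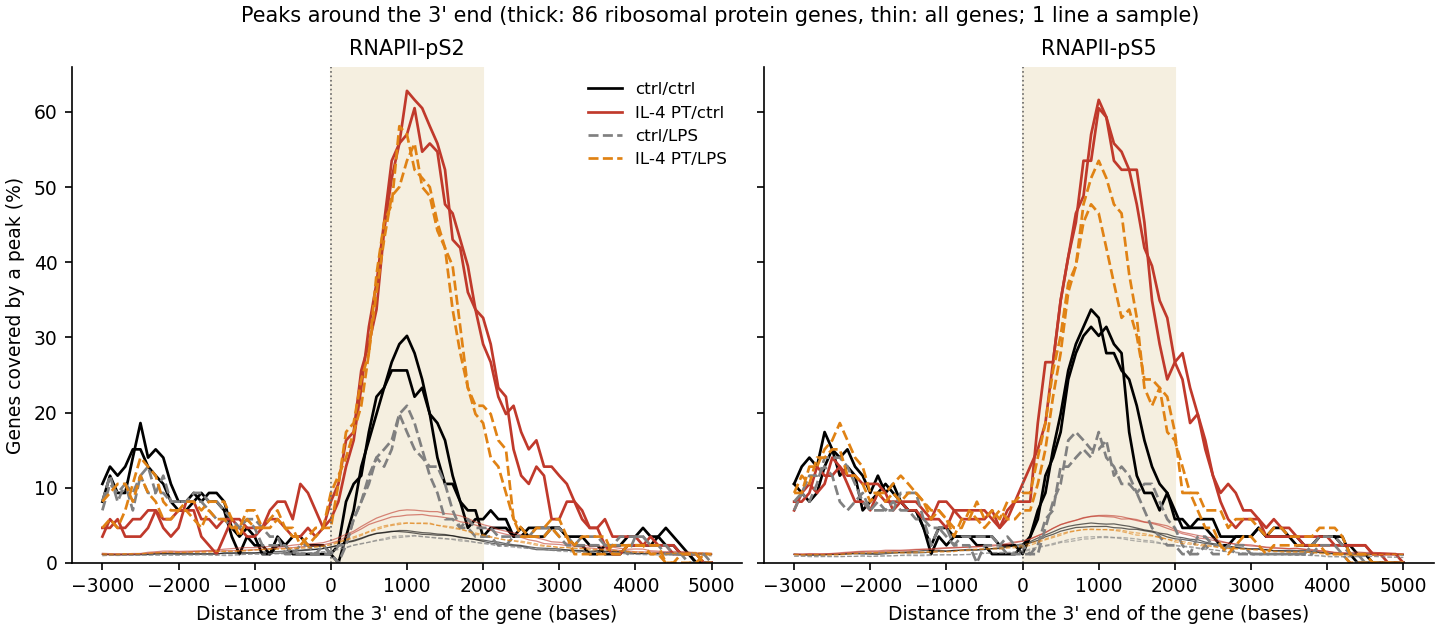
Share of genes covered by a peak (vertical axis, %) at each distance from the 3′ end (horizontal axis, bases; past the end positive) for RNAPII-pS2 and RNAPII-pS5, with a thick line for the 86 ribosomal protein genes and a thin line for all genes in each of the 8 samples; the shaded band is the window from 1 to 2000 bases. The 4 lines of pretreated samples peak near 1000 bases at 47.7% to 62.8%, and the 4 others at 17.4% to 33.7%.

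Limma, a linear model with a shared estimate of variance, was fitted on the centred log2 scores across all genes (called at a Benjamini-Hochberg adjusted p of at most 0.05). Because the window was chosen after these values were seen, the calls describe the same pattern and are no separate support for it. Of 65 members tested for RNAPII-pS2, 29 rose and 0 fell in IL-4 PT/ctrl against ctrl/ctrl, where 16.7% of all 3340 genes rose and 4.94% fell, and the median log2 change was 1.43 for members and 0.29 for all genes. In IL-4 PT/LPS against ctrl/LPS, 22 rose and 0 fell (7.31% of all genes rose, 3.17% fell), with medians of 1.44 and −0.18. For RNAPII-pS5, 17 of 68 members rose and 0 fell without LPS (9.71% and 6.51% of all 3027 genes; medians 1.07 and 0.04), and 20 rose and 0 fell with LPS (7% and 2.94%; medians 1.06 and −0.23). The unstimulated and the LPS comparison share no sample but share the estimate of spread; for RNAPII-pS2, 18 members were called in both (62.1% of the first list and 81.8% of the second), and for RNAPII-pS5 10 were (58.8% and 50%). Of all genes called higher, 93 were shared for RNAPII-pS2 (16.7% and 38.1%) and 53 for RNAPII-pS5 (18% and 25%). Members that lack a peak in a group enter these fits at the floor. With a peak required in every sample, 10 of 20 members rose for RNAPII-pS2 without LPS and 9 with it. For RNAPII-pS5, 3 of 21 rose without LPS and 5 with it, and none fell for either antibody. Shares of all genes at this setting are not given here. Whether the RNAPII-pS2 and RNAPII-pS5 samples came from the same chromatin is not stated.

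The members with a peak past the end in every sample show the change without a floor. Rps15, on the small subunit head, had RNAPII-pS2 scores of 9.83 and 8.85 in ctrl/ctrl, 24.47 and 28.9 in IL-4 PT/ctrl, 3.01 and 3.17 in ctrl/LPS and 14.2 and 12.66 in IL-4 PT/LPS, a log2 change of 1.26 ± 0.21 (SE) without LPS and 1.76 ± 0.21 with it (adjusted p 0.0109 and 0.00687, limma). Rplp0 had 5.51 and 3.23, then 18.85 and 18.14, then 2.9 and 2.89, then 11.88 and 13.56 in the same order of groups (1.88 ± 0.30, adjusted p 0.00912, limma; with LPS 1.77 ± 0.30, 0.0206). Rps14, which binds its own pre-mRNA, had 4.17 and 4.51, then 18.18 and 21.43, then 5.81 and 3.3, then 13.2 and 13.8 (1.94 ± 0.33 without LPS, adjusted p 0.0109, limma; 0.07 with LPS). In each of these genes both pretreated samples lay above both others at each LPS state. Rpl13 had 13.6 and 10.98 in ctrl/ctrl and 36.62 and 49.01 in IL-4 PT/ctrl (1.54 ± 0.30, adjusted p 0.0175, limma; 0.0768 with LPS). Rpl19 had 17.41 and 11.8 against 52.83 and 47.22 (1.55 ± 0.31, adjusted p 0.0182, limma; 0.0535 with LPS). Rps3a1, whose RNAPII-pS2 passed the test with LPS alone, had 7.91 and 5.21 in ctrl/ctrl, 15.46 and 12.86 in IL-4 PT/ctrl, 4.01 and 3.15 in ctrl/LPS and 19.16 and 12.06 in IL-4 PT/LPS (1.74 ± 0.36 with LPS, adjusted p 0.0367, limma; 0.145 without). Of the 28 members with a RNAPII-pS2 peak in all 4 samples of the unstimulated comparison, 28 had both pretreated scores above both others, where 46.5% of 1308 genes did; with LPS 21 of 22 did (40.8% of 1036 genes).

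Other members had a peak past the end with pretreatment alone, within the second experiment. The 1 hr experiment, without pretreatment, had RNAPII-pS2 past the end of such genes in all libraries. There Rplp1 scored 36.76 and 48.6 (labelled untreated) and 18.92 and 30.04 (labelled IL-4). Rplp2 scored 37.4 and 43.59, then 17.91 and 30.86, and Rpl12 36.67 and 37.5, then 13.02 and 21.21. The pattern thus holds among the samples of the second experiment only. Rplp1, the acidic stalk protein that recruits translation factors, had no RNAPII-pS2 peak past the end in ctrl/ctrl or ctrl/LPS and scores of 12.4 and 11.43 in IL-4 PT/ctrl and 8.36 and 10.14 in IL-4 PT/LPS. Rplp2, its partner, had none in those 4 samples and 5.26 and 7.03, then 8.38 and 7.19 in the pretreated ones. Rpl27, Rpl8, Rpl23a, Rpl38, Rps16, Rpl14, Rps27a, Rpl34, Rpl7a, Rpl15, Rpl36al and Rpl12 were among those with the same pattern. In all, 20 members had a RNAPII-pS2 peak in both IL-4 PT/ctrl and neither ctrl/ctrl replicate, where 2.83% of all genes did, and 0 members had the reverse (0.673% of all). With LPS 29 members gained a peak in this way (2.25% of all) and 0 lost one (0.445%). RNAPII-pS5 was gained at 18 members without LPS (1.63% of all genes) and at 23 with it (1.49%). Rpl12 was the extreme, with no RNAPII-pS5 peak past the end in the 4 samples without pretreatment and 17.48, 17.83, 19.76 and 11.69 in the 4 with it. Rpl10, which completes the 60S subunit, had a RNAPII-pS5 peak in all 8 samples, at 11.01 and 8.87 in ctrl/ctrl, 27.06 and 24.74 in IL-4 PT/ctrl, 4.7 and 7.54 in ctrl/LPS and 15.57 and 13.46 in IL-4 PT/LPS (1.27 ± 0.30 without LPS, adjusted p 0.0428, limma; 0.102 with LPS). Rpl4 had 17.63 and 18.55, then 38.36 and 37.0, then 7.76 and 10.94, then 26.58 and 29.14 (1.37 ± 0.25 with LPS, adjusted p 0.024, limma; 0.0594 without), and Rpl5, which carries 5S RNA, 10.06 and 12.61, then 22.91 and 21.63, then 3.98 and 3.87, then 14.2 and 11.09 (1.45 ± 0.26 with LPS, adjusted p 0.0228, limma; 0.0855 without).

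With LPS the members called lower past the 3′ end were no larger a share than those of all genes. In ctrl/LPS against ctrl/ctrl, which shares the ctrl/ctrl samples with the comparison above, 6 of 65 members (9.23%) fell and 0 rose for RNAPII-pS2 (12.8% of all genes fell and 8.59% rose) and 9 fell and 0 rose for RNAPII-pS5 (17.8% and 7.76%), with medians of −0.14 and −0.24 against 0.13 and −0.34 for all genes. The median took either sign under the alternatives (−0.38 to 0.2 for RNAPII-pS2, −0.63 to 0.39 for RNAPII-pS5). With missing peaks and all scores below 4 times the floor set to that value, RNAPII-pS5 gave 19 higher and 7 lower. In pretreated cells LPS went with 8 lower and 0 higher for RNAPII-pS2 (23.3% and 11.3% of all genes) and 8 lower and 2 higher for RNAPII-pS5 (19.5% and 8.56%). Within 1 hr of IL-4, RNAPII-pS5 past the end was found at 47 and 32 untreated and 51 and 41 treated members, and limma called 0 of 48 members and 0 of all 2721 genes, with 6 members at an unadjusted p under 0.05 (475 of all genes). RNAPII-pS2 in the 1 hr experiment was found there at 70 to 75 members in all 4 libraries, whatever their labels; limma called 0 of 75 members (0.446% of all 4934 genes higher, 0.689% lower), with 6 at an unadjusted p under 0.05.

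Other gene classes and windows set the size of this pattern. Past the end of 77 mitochondrial ribosomal protein genes RNAPII-pS2 was found at 10 and 12 in ctrl/ctrl, 24 and 25 in IL-4 PT/ctrl, 6 and 5 in ctrl/LPS and 11 and 14 in IL-4 PT/LPS; 9 of 23 tested rose without LPS and 0 with it. Of 18 translation factors tested, 4 rose in each of the RNAPII-pS2 comparisons, and of 19 genes of ribosome assembly and rRNA synthesis 6 rose and 1 fell without LPS and 5 rose with it. Among 1010 other genes at or above the 90th percentile of untreated RNAPII-pS5, the share with RNAPII-pS2 past the end was 23.3% and 22.9% in ctrl/ctrl and 30% and 31% in IL-4 PT/ctrl. Where no other gene lies in the 2000 bases (57 members), the counts were 21 and 19 in ctrl/ctrl, 39 and 40 in IL-4 PT/ctrl, 13 and 15 in ctrl/LPS and 42 and 39 in IL-4 PT/LPS. In the first 1000 bases alone they were 20 and 22, 28 and 25, 15 and 16, and 33 and 31, and there 3 members rose and 2 fell without LPS. When missing peaks and all scores below 4 times the floor were set to that value, 19 members rose and 3 fell for RNAPII-pS2 in IL-4 PT/LPS against ctrl/LPS, and 15 rose and 12 fell for RNAPII-pS5. Shares of all genes called in the first 1000 bases and at this floor are not given here, so these counts show only how the calls moved. The number of calls fell when a compared sample was left out: for RNAPII-pS2 from 29 to 15 and 13 without IL-4 PT/ctrl replicate 1 or 2, and from 22 to 10, 13, 10 and 10 without ctrl/LPS replicate 1, 2 or IL-4 PT/LPS replicate 1, 2. For RNAPII-pS5 it fell from 17 to 10, 11, 10 and 9 without ctrl/ctrl replicate 1, 2 or IL-4 PT/ctrl replicate 1, 2, and from 20 to 4, 5, 6 and 3 without the corresponding LPS samples.

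At the start of the genes RNAPII-pS2 moved differently. A RNAPII-pS2 peak centred within 500 bases of the start was found at 59 and 57 of 86 members in ctrl/ctrl and at 32 and 34 in IL-4 PT/ctrl, with 25.4% and 24.9% of all genes against 17.7% and 18.9%. In ctrl/LPS it was at 55 and 51 and in IL-4 PT/LPS at 48 and 50. For RNAPII-pS5 the counts were 59 and 48 in ctrl/ctrl, 43 and 42 in IL-4 PT/ctrl, 48 and 45 in ctrl/LPS and 53 and 53 in IL-4 PT/LPS. Shares of all genes at the start are not given here for the LPS groups or for RNAPII-pS5. Those counts are therefore not read as particular to members.

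The summed named scores of RNAPII-pS2 gave 11 called members in IL-4 PT/ctrl against ctrl/ctrl, 3 higher and 8 lower (5.87% of all 11640 genes higher and 5.4% lower), with a median change of −0.57 for 74 members and −0.05 for all genes. With peaks over the gene itself 7 fell and 0 rose (5.27% and 5.13% of all 10832), and the median was −0.64. Rpl27 fell from 14.16 and 13.45 to no peak in either IL-4 PT/ctrl replicate (adjusted p 0.00283, limma), and had 9.29 and 8.48 in ctrl/LPS and 6.35 and 7.94 in IL-4 PT/LPS. Rps18, of the small subunit head, had 9.56 and 8.51 in ctrl/ctrl, no peak in IL-4 PT/ctrl, 8.25 and 5.13 in ctrl/LPS and 12.58 and 8.92 in IL-4 PT/LPS (adjusted p 0.00711, limma). Rps23, at the decoding site, had 9.76 and 15.64, no peak, 15.65 and 9.45, and 34.66 and 44.5 (adjusted p 0.00762, limma). The missing scores stand beside peaks nearby. The nearest RNAPII-pS2 peaks of the IL-4 PT/ctrl replicates lay 679 and 703 bases from Rpl27, 139 and 69 bases from Rps18 (named B3galt4, 36.06 and 38.7), 934 and 1006 bases from Rps23 and 95 and 244 bases from Rpsa (named Snora62, 28.68 and 30.92). Rpl37 fell from 4.77 and 10.45 to no peak (adjusted p 0.0329, limma) and had its nearest peaks 2464 and 2012 bases away. Rpl17 (6.37 and 9.02 in ctrl/ctrl, no peak in the 6 other samples; adjusted p 0.00741, limma), Rpsa, Rplp2 and Rpl11 were the other calls that were lower. Of the 3 higher ones, Rpl10a rose from 15.63 and 12.57 to 33.52 and 41.37 and Rps25 from a single score of 3.59 to 19.46 and 9.49. None of the 3 passed with peaks over the gene itself, and the Rps25 scores are those past its 3′ end. Without ctrl/ctrl replicate 1, ctrl/ctrl replicate 2 or IL-4 PT/ctrl replicate 2 the count of 11 was 6.

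The limma test of the difference between the RNAPII-pS2 responses to LPS called 5 members: Rps23 (4.65 on the log2 scale), Rps18 (3.20), Rpl27 (2.79), Rpsa (2.68) and Rpl17 (2.25). This was 5 of 74 members, all higher, where 2.81% of all genes were higher and 2.34% lower, and leaving out any of the 8 samples left 0. Each of the 5 had no RNAPII-pS2 score in IL-4 PT/ctrl, so each value depends on the floor. Rpl17 had scores in ctrl/ctrl alone, so no LPS response of pretreated cells could be seen at it. At Rps18 and Rpsa a peak named for another gene lay nearby in IL-4 PT/ctrl, as given above. A differing LPS response is thus not shown at these 3 genes. In IL-4 PT/LPS against ctrl/LPS 2 members rose and 1 fell (4.2% and 2.53% of all genes), with Rpl19 at 11.4 and 16.44 in ctrl/LPS and 46.19 and 40.41 in IL-4 PT/LPS; its peaks there are those past the 3′ end, and over the gene itself its change was −0.06. In ctrl/LPS against ctrl/ctrl 2 rose and 3 fell (9.36% and 12.8%). Rps15 went from 27.57 and 22.52 to 8.55 and 3.17, and Rpl41 from a single score of 3.97 to 27.36 and 10.89. In IL-4 PT/LPS against IL-4 PT/ctrl 5 rose and 3 fell (8.31% and 8.98%).

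The RNAPII-pS5 scores of these genes after LPS had a median change above that of all genes. The median change of 72 members in ctrl/LPS against ctrl/ctrl was 0.10 and that of all genes −0.40. Without centring the medians were −0.24 and −0.74, so the sign depends on the scale. Limma called 4 higher and 5 lower (7.06% and 17% of all 10610 genes). Rps12, the member with the highest score there, had 47.7 and 40.23 in ctrl/ctrl and 65.26 and 71.72 in ctrl/LPS (0.98 ± 0.27, adjusted p 0.0463, limma). Rpl13 rose from 6.09 and 5.05 to 18.9 and 10.65 (1.70, adjusted p 0.0399, limma). Rps15 fell from 21.28 and 24.2 to 6.3 and 5.86 (−1.56 ± 0.29, adjusted p 0.0128, limma), and stood at 28.75 and 24.42 in IL-4 PT/ctrl and 26.57 and 26.95 in IL-4 PT/LPS, so the LPS samples without pretreatment were the 2 low ones. Rpl10a fell from 20.64 and 19.5 to 7.76 and 6.16 (−1.20, adjusted p 0.0325, limma). Neither call held with peaks over the gene itself (adjusted p 0.471 and 0.173, limma), where Rps12 also missed it (0.0546). Rpl36a and Rps27l, which fell too, had RNAPII-pS5 peaks in both ctrl/ctrl replicates and none in ctrl/LPS.

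With pretreatment, 6 members had higher RNAPII-pS5 in IL-4 PT/LPS than in ctrl/LPS and 0 had lower (5.79% and 2.72% of all genes), with a median of 0.29 for members and 0.03 for all. With promoter peaks alone the median turned to −0.27, and that of all genes to −0.16. Rps15 (6.3 and 5.86 against 26.57 and 26.95) had a peak in every sample, and the call was lost with peaks over the gene itself (adjusted p 0.18, limma). Rpl22, which has a paralog, had no peak in ctrl/ctrl or ctrl/LPS and 10.12 and 7.7, then 8.44 and 10.29 in the pretreated groups (adjusted p 0.0113, limma). In pretreated cells LPS went with 4 higher and 0 lower (6.41% and 12.9% of all genes), Rpl41 and Rplp1 among them. Rplp1 had 13.98 and 11.86 in IL-4 PT/ctrl and 24.91 and 39.39 in IL-4 PT/LPS (adjusted p 0.0459, limma). IL-4 PT/ctrl against ctrl/ctrl, which shares no sample with the comparison under LPS, called 3 higher and 0 lower (4.02% and 3.03% of all genes, 7.05% either way), namely Rpl22, Rpl15 and Rpl34, of which Rpl22 also passed with peaks over the gene itself, while Rpl15 turned from 2.77 to −0.08 and Rpl34 from 3.55 to −0.83. With those peaks 3 members were called higher and 3 lower (Rpl19, Rpl31 and Rps15), and with promoter peaks alone 0 and 1. The difference between the LPS responses called 0 of 72 members by limma, with 7 at an unadjusted p under 0.05, and 3 with peaks over the gene itself. Shares of all genes called under these other peak sets are not given here, so these counts show only how the calls moved.

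**Figure D3:**
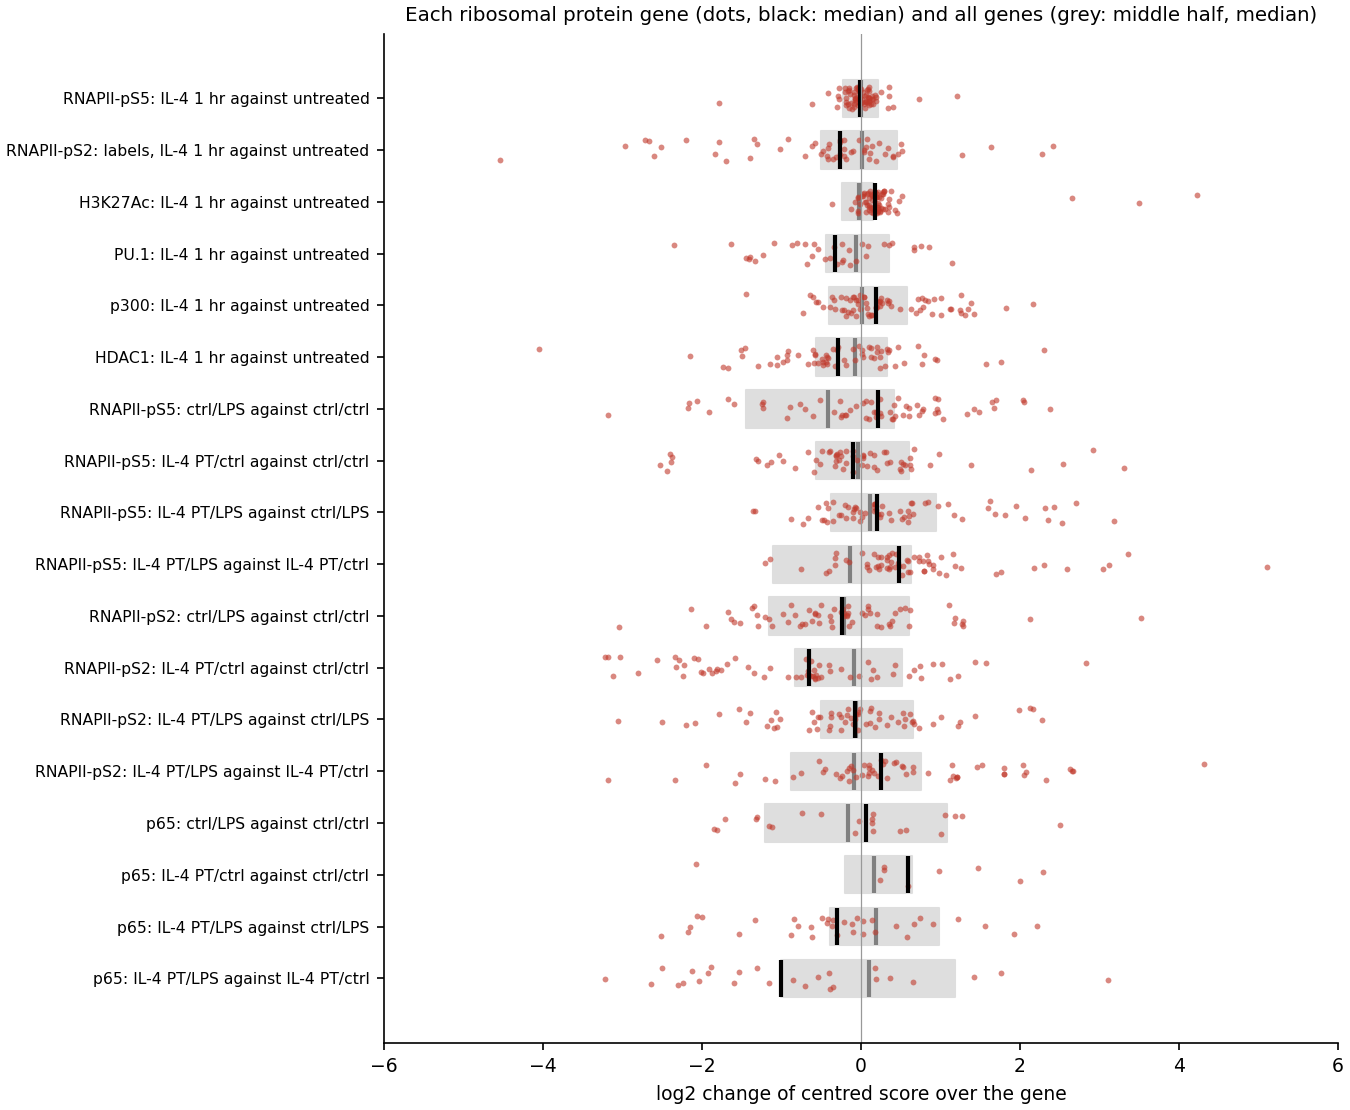
log2 change of the centred score over the gene (horizontal axis) for each comparison (vertical axis). Red dots are members that had peaks in 2 or more of the compared samples and the black line is their median; the grey box and line are the interquartile range and median of all genes, so for H3K27Ac after 1 hr of IL-4 the members sit right of the box's centre and for RNAPII-pS2 in IL-4 PT/ctrl left of it.

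p65 was rare at these genes. A p65 peak lay over 2 of 89 members in both ctrl/ctrl replicates (Rps7 and Rps12), over 5 in IL-4 PT/ctrl, 17 in ctrl/LPS and 18 in IL-4 PT/LPS, where the share of all genes went from 12.1% to 27.1% with LPS and to 33.6% with both. Rpl24 had the highest scores over a gene after LPS, 40.66 and 41.77 in ctrl/LPS and 47.88 and 55.63 in IL-4 PT/LPS, against a single score of 4.49 in ctrl/ctrl. Rps12 held 7.01 and 5.93 in ctrl/ctrl, 5.15 and 8.85 in IL-4 PT/ctrl, 8.13 and 7.47 in ctrl/LPS and 10.78 and 10.57 in IL-4 PT/LPS. Both ctrl/LPS scores lay above both ctrl/ctrl scores, yet the centred change with LPS, which passed the test, was −1.25, and it was 0.27 without centring. Rps27a, the ubiquitin fusion gene, had no peak in ctrl/ctrl, a single score of 3.48 in IL-4 PT/ctrl, 9.47 and 16.7 in ctrl/LPS and 26.87 and 36.21 in IL-4 PT/LPS among the peaks named for it. Over the gene itself Rps27a had p65 in single samples only, at 3.44 in ctrl/ctrl, 6.3 in ctrl/LPS and 5.84 in IL-4 PT/LPS, and its change with LPS turned from 1.74 to −1.15. By named score limma called 6 of 46 members higher and 9 lower with LPS (17.8% and 14.9% of all 9925 genes), but 6 of these 15 had no peak in any of the 4 samples compared and owe their sign to centring, and with peaks over the gene itself 7 were called. Without centring the median change of members with LPS was 1.26 and that of all genes 1.39, and 1.38 against 2.28 in pretreated cells.

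IL-4 for 1 hr went with slightly higher H3K27Ac at most ribosomal protein genes. Of 70 members tested by named signal, 64 changed upward, the median log2 change was 0.22 (0.00 for all 11362 genes), and in 54 (77.1%) both IL-4 samples lay above both untreated ones after centring, where 33.9% of all genes did; 2 lay below. Limma called 15 members, all higher, where 12.3% of all genes were called higher and 13.9% lower. With regions over the gene itself 62 of 76 members (81.6%) lay above, against 29.4% of all genes, and 11 were called higher and 1 lower (10.3% and 14.4% of all 11245). The median stayed between 0.13 and 0.24 under every alternative tried, but leaving out untreated replicate 1, untreated replicate 2, IL-4 replicate 1 or IL-4 replicate 2 left 3, 3, 0 and 2 calls. A tag was worth 0.307 and 0.312 units in the untreated and 0.332 and 0.347 in the IL-4 samples, so the IL-4 libraries were scaled up by more; whether this bears on the difference was not tested. Over 5 classes of mean H3K27Ac from low to high, 1 of 2, 1 of 2, 17 of 20, 21 of 26 and 14 of 20 members lay above, against 27.3%, 34.6%, 36.8%, 35.9% and 34.8% of all genes.

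**Figure D4:**
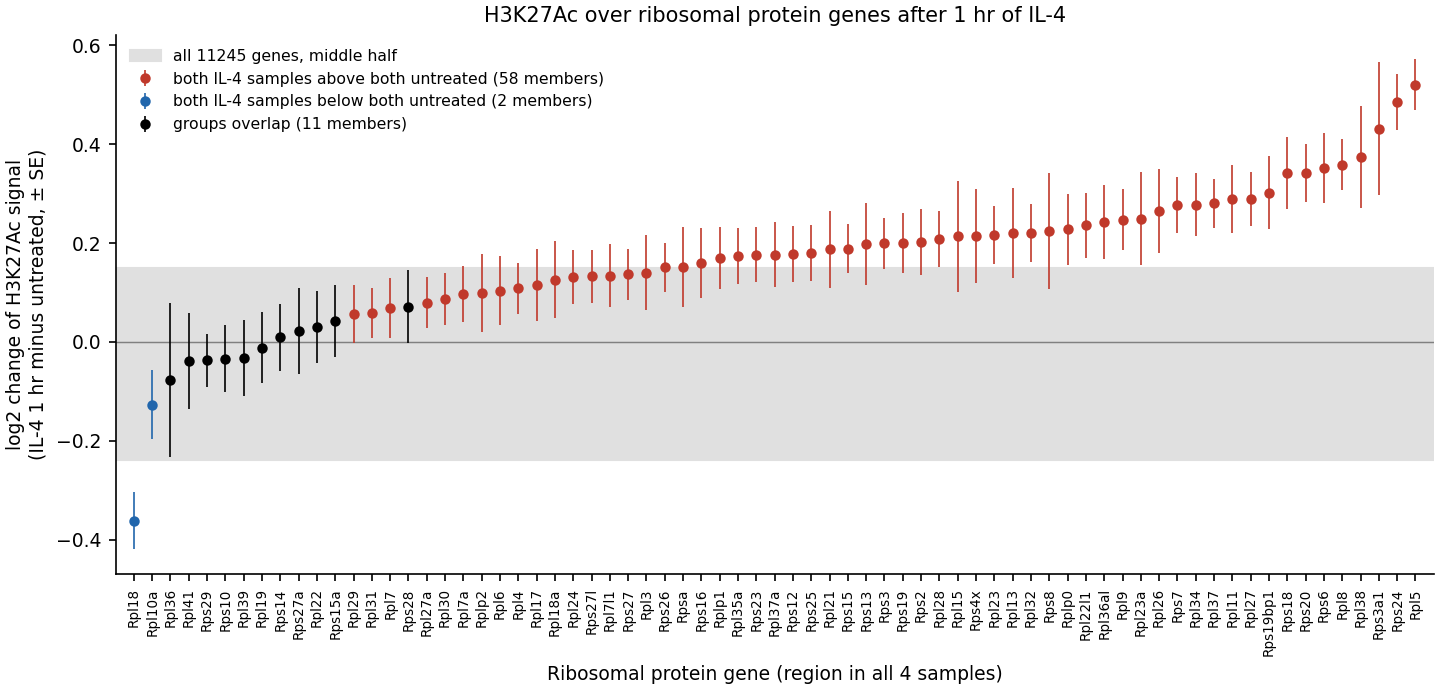
log2 change of H3K27Ac signal after 1 hr of IL-4 (vertical axis, ± SE) for 71 members with a region over the gene in all 4 samples (horizontal axis). Classes were set on centred values: in red are 58 genes with both IL-4 samples above both untreated ones, in blue Rpl18 and Rpl10a with both below, in black 11 that overlap; the grey band is the interquartile range of all 11245 genes.

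The rises were modest and even between replicates. Rps24 went from 82.9 and 80.3 tags to 115.9 and 121.5 (0.53 ± 0.056, adjusted p 0.0136, limma). Rpl8, of the large subunit core, went from 151.0 and 154.3 to 204.6 and 202.0 (0.40 ± 0.051, adjusted p 0.0184, limma). In both genes the lower IL-4 sample was well above the higher untreated one. Rpl5 went from 121.9 and 117.5 to 179.8 and 177.0 over the gene (0.52 ± 0.052, adjusted p 0.0118, limma). Rpl37 went from 167.6 and 168.7 to 211.9 and 212.5 (0.32 ± 0.049, adjusted p 0.025, limma), and Rps20, Rpl27 and Rps7 by 0.32 to 0.38. Rps6, whose protein is the classic target of S6 kinase, went from 118.8 and 125.6 to 168.2 and 155.9 over the gene (0.35, adjusted p 0.0451, limma) and missed the threshold by named signal (0.0609). Rpl12 had no region over the gene in untreated cells and 180.5 and 174.3 in IL-4; the nearest untreated regions lay 2513 and 2538 bases away. Rpl18, the member with the most H3K27Ac, went the other way, from 648.3 and 608.9 to 505.6 and 510.3 over the gene (−0.36 ± 0.057, adjusted p 0.0272, limma). Rpl10a had 615.5 and 561.7 against 572.2 and 547.1 (−0.13, adjusted p 0.274, limma), values that overlap before centring. Rps14 (328.8 and 300.9 against 323.8 and 334.3), Rps27a (427.9 and 379.3 against 441.7 and 409.3) and Rpl22 (143.7 and 129.0 against 145.7 and 143.4) overlapped or nearly did. Mitochondrial ribosomal protein genes had a median of 0.14, with 8 of 60 called higher and 3 lower, genes of ribosome assembly and rRNA synthesis 0.19 (8 and 1 of 35), translation factors 0.13 (2 and 1 of 32) and regulators of ribosomal protein synthesis 0.04 (4 and 1 of 23).

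**Figure D5:**
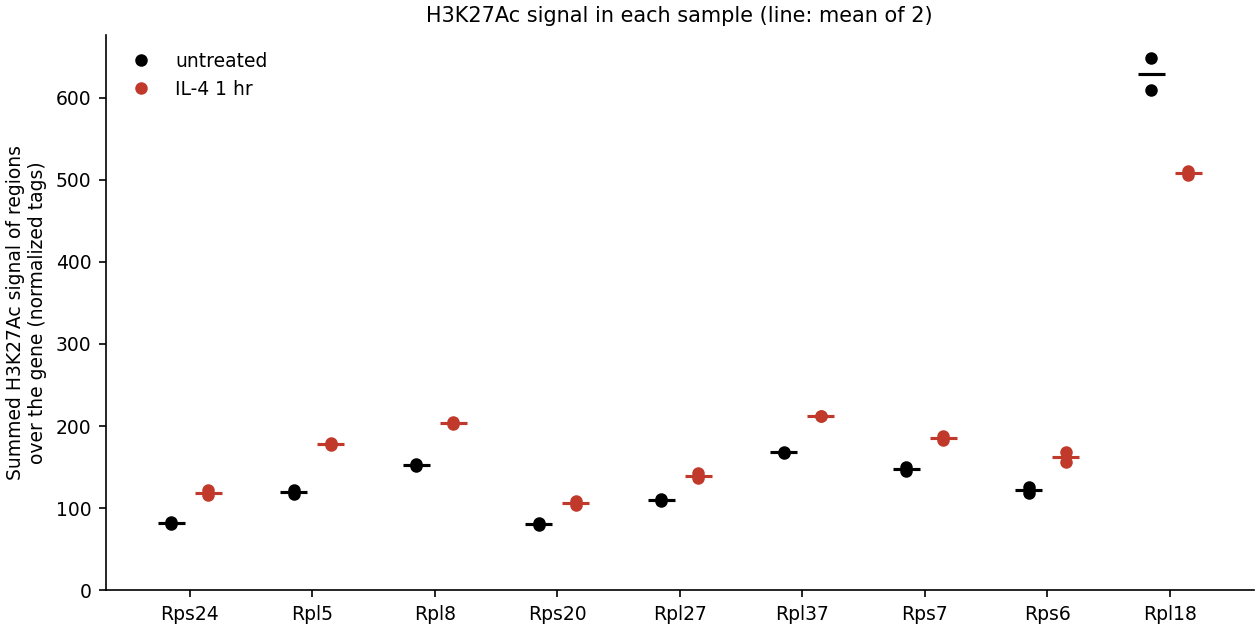
Summed H3K27Ac signal of the regions over the gene (vertical axis, normalized tags) in each untreated (black) and IL-4 (red) sample for 9 members (horizontal axis), lines at the means of 2. In 8 of them both red points lie above both black ones, and in Rpl18 both lie below.

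The other antibodies gave few or no calls at 1 hr. RNAPII-pS5 had a median change of 0.03 over 73 members, with Rpl18 called higher and Rpl32 lower (0.343% and 0.661% of all 11958 genes), and neither held with peaks over the gene. RNAPII-pS5 lay over 76 members before and after. By limma 0 members were called for RNAPII-pS2 (51 tested, 7 at an unadjusted p under 0.05), PU.1 (54, 5), p300 (69, 7), HDAC1 (65, 10), HDAC2 (28, 5) and HDAC3 (7, 1), and 0 of all genes were. The number of members with HDAC1 in both replicates was 58 in untreated and 42 in IL-4 samples (65.2% and 47.2%, with 40.3% and 34.2% of all genes). That of p300 was 48 and 71, and the untreated count rests on the replicate that stands apart.

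Some members and paralogs had few peaks or none. No peak was named for Rpl13a, Rps27rt, Rps23rg1, Rpl32l or Rpl37rt. Peaks at members that host or adjoin small RNAs often carry the other name. At Rpl3, 4 peaks were named for the gene and 8 lay over it, at Rpl26 5 and 32, at Rps27 5 and 41 and at Rps2 8 and 48. Among the paralogs, Rpl10l, a testis gene, had 31 named peaks of which 30 were intergenic and 0 over the gene, and Rpl39l had 2, both intergenic. Rpl3l, the muscle form, had 3 named peaks and 20 over the gene. Rpl22l1 had 61 named peaks and 42 over the gene, Rpl7l1 84 and 70, Rpl36al 43 and 25 and Rps27l 69 and 40, and all 4 had polymerase. In the second experiment Rpl22l1 had no RNAPII-pS5 past the 3′ end without pretreatment and 8.37, 5.95, 5.46 and 6.47 with it (adjusted p 0.0042 without LPS, limma). In the 1 hr experiment it had 6.4 in untreated replicate 1 and 6.12 and 3.58 in the IL-4 replicates.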

How the data were processed

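Per the labels, ChIP-seq reads were processed with BWA 0.7.10, SAMtools 0.1.19, HOMER 4.2 and MACS2 2.0.10 on mm10, and the authors deposited 1 annotated peak list per sample. The deposited MACS2 score is a −log10 p- or q-value (which of them is not given in the sources used here; lowest 1.3), and the deposited H3K27Ac signal is a normalized HOMER tag count. Read depth and an input control are not given in the sources used here, so no counting interval was computed, and the score also rises with depth. Named scores were summed per gene over non-intergenic peaks and log2-transformed. Each sample was centred on its median over the genes with a peak in all samples of that antibody and experiment. These were 3597 genes for RNAPII-pS5 and 2081 for p65 in the second experiment, so the median change of all genes need not be 0. Limma 3.58.1 (R 4.3.3) was fitted on every gene that had peaks in 2 or more samples, with missing peaks at the lowest score of the antibody (1.3 to 1.44, and 9.1 for H3K27Ac). Tables were made in Python 3.11.15 with pandas 2.3.3. An exact permutation of 2 against 2 cannot go below p = 0.333. The paper calls its ChIP-seq replicates independent and biological but does not state separate cultures, so p-values measure the spread between these samples. Changes are on the log2 scale. The members, gene lists and motifs were chosen with earlier results of these data known, and the 3′-end measure and the use of peaks over the gene itself after the values were seen. Named genes were a fixed set of well-known members and paralogs, members called by limma, the most and least changed with a peak in every sample and groups apart, the highest and lowest levels, and members with few or no peaks. Scripts were tested on simulated data. Alternatives covered the filter, the floor, centring, peak classes, the replicate block and each left-out sample. Sequences come from RefSeq (GRCm38.p6). Values of some single members are not reported here.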

Additional observations from a re-analysis of the deposited data

Results flagged for a closer look

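The limma test of the difference between the RNAPII-pS2 responses to LPS of pretreated and unpretreated cells called Rps23 (4.65 on the log2 scale), Rps18 (3.20), Rpl27 (2.79), Rpsa (2.68) and Rpl17 (2.25). For p65 the same test called Rpl38 (−2.33), where peaks of 4.96 and 3.87 were present in ctrl/LPS alone. The share of all genes called in that p65 test is not given here. All of these rest on samples with no peak set to the floor. Intergenic p65 peaks nearest to a ribosomal protein gene, which the comparisons leave out, numbered 49 in the ctrl/LPS samples, 18 in ctrl/ctrl, 20 in IL-4 PT/ctrl and 63 in IL-4 PT/LPS; as shares of all intergenic p65 peaks these are 0.218%, 0.225%, 0.231% and 0.197%.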

How the results depend on the processing

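Of 420 counts of called members under an alternative setting 268 stayed within 1.5 times the reported count and 152 did not; past the 3′ end 97 of 152 did and 55 did not. Of 1839 values of single called members 1168 kept direction and call, 637 lost the call and 34 turned in sign. Each value is given with the reported one after it, and the cause was not tested. A count compares IL-4 with untreated samples (1 hr) or the named groups. Replicate numbers do not pair the samples (r of deviations −0.0547 to 0.077 over 26 pairs), and the fits with a replicate block are among the settings below. Depth is unknown, and a missing peak can be a weak one.

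With the setting "peak in every sample", the count of called members was 0 (reported 2) for RNAPII-pS5 at 1 hr, 3 (reported 0) for p300 at 1 hr, 0 (reported 3) for RNAPII-pS5 in IL-4 PT/ctrl over ctrl/ctrl, 3 (reported 6) for RNAPII-pS5 in IL-4 PT/LPS over ctrl/LPS, 1 (reported 4) for RNAPII-pS5 in IL-4 PT/LPS over IL-4 PT/ctrl, 6 (reported 11) for RNAPII-pS2 in IL-4 PT/ctrl over ctrl/ctrl, 1 (reported 3) for RNAPII-pS2 in IL-4 PT/LPS over ctrl/LPS, 2 (reported 8) for RNAPII-pS2 in IL-4 PT/LPS over IL-4 PT/ctrl, 0 (reported 5) for RNAPII-pS2 in the difference of LPS responses, 2 (reported 15) for p65 in ctrl/LPS over ctrl/ctrl, 0 (reported 3) for p65 in IL-4 PT/ctrl over ctrl/ctrl, 0 (reported 5) for p65 in IL-4 PT/LPS over ctrl/LPS, 2 (reported 12) for p65 in IL-4 PT/LPS over IL-4 PT/ctrl, 0 (reported 1) for p65 in the difference of LPS responses, 3 (reported 6) for RNAPII-pS2 in ctrl/LPS over ctrl/ctrl past the 3′ end, 10 (reported 29) for RNAPII-pS2 in IL-4 PT/ctrl over ctrl/ctrl past the 3′ end, 9 (reported 22) for RNAPII-pS2 in IL-4 PT/LPS over ctrl/LPS past the 3′ end, 2 (reported 8) for RNAPII-pS2 in IL-4 PT/LPS over IL-4 PT/ctrl past the 3′ end, 5 (reported 9) for RNAPII-pS5 in ctrl/LPS over ctrl/ctrl past the 3′ end, 3 (reported 17) for RNAPII-pS5 in IL-4 PT/ctrl over ctrl/ctrl past the 3′ end, 5 (reported 20) for RNAPII-pS5 in IL-4 PT/LPS over ctrl/LPS past the 3′ end, 2 (reported 10) for RNAPII-pS5 in IL-4 PT/LPS over IL-4 PT/ctrl past the 3′ end. With the setting "peak in at least 1 sample", the count of called members was 1 (reported 2) for RNAPII-pS5 at 1 hr, 1 (reported 3) for p65 in IL-4 PT/ctrl over ctrl/ctrl. With the setting "replicate block", the count of called members was 0 (reported 2) for RNAPII-pS5 at 1 hr, 2 (reported 15) for H3K27Ac at 1 hr, 3 (reported 5) for RNAPII-pS2 in ctrl/LPS over ctrl/ctrl, 7 (reported 11) for RNAPII-pS2 in IL-4 PT/ctrl over ctrl/ctrl, 1 (reported 3) for RNAPII-pS2 in IL-4 PT/LPS over ctrl/LPS, 0 (reported 5) for RNAPII-pS2 in the difference of LPS responses, 1 (reported 3) for p65 in IL-4 PT/ctrl over ctrl/ctrl, 3 (reported 5) for p65 in IL-4 PT/LPS over ctrl/LPS, 0 (reported 1) for p65 in the difference of LPS responses, 5 (reported 9) for RNAPII-pS5 in ctrl/LPS over ctrl/ctrl past the 3′ end, 11 (reported 20) for RNAPII-pS5 in IL-4 PT/LPS over ctrl/LPS past the 3′ end. With the setting "peaks over the gene itself", the count of called members was 0 (reported 2) for RNAPII-pS5 at 1 hr, 6 (reported 3) for RNAPII-pS5 in IL-4 PT/ctrl over ctrl/ctrl, 3 (reported 0) for RNAPII-pS5 in the difference of LPS responses, 7 (reported 11) for RNAPII-pS2 in IL-4 PT/ctrl over ctrl/ctrl, 7 (reported 15) for p65 in ctrl/LPS over ctrl/ctrl, 0 (reported 3) for p65 in IL-4 PT/ctrl over ctrl/ctrl, 3 (reported 1) for p65 in the difference of LPS responses, and the log2 change turned to −1.23 (2.72) for Rpl34 RNAPII-pS5 in ctrl/LPS over ctrl/ctrl, −0.08 (2.77) for Rpl15 RNAPII-pS5 in IL-4 PT/ctrl over ctrl/ctrl, −0.83 (3.55) for Rpl34 RNAPII-pS5 in IL-4 PT/ctrl over ctrl/ctrl, −0.06 (1.62) for Rpl19 RNAPII-pS2 in IL-4 PT/LPS over ctrl/LPS, −0.3 (3.27) for Rpsa RNAPII-pS2 in IL-4 PT/LPS over IL-4 PT/ctrl, −1.15 (1.74) for Rps27a p65 in ctrl/LPS over ctrl/ctrl. With the setting "upper 50% of peaks", the count of called members was 3 (reported 0) for RNAPII-pS2 at 1 hr, 25 (reported 15) for H3K27Ac at 1 hr, 3 (reported 9) for RNAPII-pS5 in ctrl/LPS over ctrl/ctrl, 1 (reported 3) for RNAPII-pS5 in IL-4 PT/ctrl over ctrl/ctrl, 3 (reported 6) for RNAPII-pS5 in IL-4 PT/LPS over ctrl/LPS, 0 (reported 4) for RNAPII-pS5 in IL-4 PT/LPS over IL-4 PT/ctrl, 2 (reported 0) for RNAPII-pS5 in the difference of LPS responses, 9 (reported 5) for RNAPII-pS2 in ctrl/LPS over ctrl/ctrl, 7 (reported 11) for RNAPII-pS2 in IL-4 PT/ctrl over ctrl/ctrl, 8 (reported 3) for RNAPII-pS2 in IL-4 PT/LPS over ctrl/LPS, 10 (reported 5) for RNAPII-pS2 in the difference of LPS responses, 6 (reported 15) for p65 in ctrl/LPS over ctrl/ctrl, 0 (reported 3) for p65 in IL-4 PT/ctrl over ctrl/ctrl, 3 (reported 5) for p65 in IL-4 PT/LPS over ctrl/LPS, 5 (reported 12) for p65 in IL-4 PT/LPS over IL-4 PT/ctrl, 2 (reported 1) for p65 in the difference of LPS responses, and the log2 change turned to 0.1 (−1.93) for Rplp2 RNAPII-pS2 in IL-4 PT/ctrl over ctrl/ctrl, 0.1 (−2.19) for Rpsa RNAPII-pS2 in IL-4 PT/ctrl over ctrl/ctrl, −0.31 (2.06) for Rpl27 RNAPII-pS2 in IL-4 PT/LPS over IL-4 PT/ctrl, −0.31 (2.64) for Rps18 RNAPII-pS2 in IL-4 PT/LPS over IL-4 PT/ctrl, −1.38 (1.07) for Rpl27a p65 in ctrl/LPS over ctrl/ctrl. With the setting "intergenic peaks counted", the count of called members was 28 (reported 15) for H3K27Ac at 1 hr, 5 (reported 3) for RNAPII-pS5 in IL-4 PT/ctrl over ctrl/ctrl, 2 (reported 4) for RNAPII-pS5 in IL-4 PT/LPS over IL-4 PT/ctrl, 11 (reported 5) for RNAPII-pS2 in ctrl/LPS over ctrl/ctrl, 6 (reported 3) for RNAPII-pS2 in IL-4 PT/LPS over ctrl/LPS, and the log2 change turned to −0.04 (1.3) for Rplp1 RNAPII-pS5 in IL-4 PT/LPS over IL-4 PT/ctrl, 0.43 (−2.44) for Rpl11 RNAPII-pS2 in IL-4 PT/ctrl over ctrl/ctrl, 0.93 (−1.74) for Rps3a1 p65 in IL-4 PT/LPS over IL-4 PT/ctrl. With the setting "promoter-TSS peaks only", the count of called members was 3 (reported 15) for H3K27Ac at 1 hr, 1 (reported 3) for RNAPII-pS5 in IL-4 PT/ctrl over ctrl/ctrl, 2 (reported 6) for RNAPII-pS5 in IL-4 PT/LPS over ctrl/LPS, 1 (reported 0) for RNAPII-pS5 in the difference of LPS responses, 3 (reported 5) for RNAPII-pS2 in ctrl/LPS over ctrl/ctrl, 7 (reported 11) for RNAPII-pS2 in IL-4 PT/ctrl over ctrl/ctrl, 1 (reported 3) for RNAPII-pS2 in IL-4 PT/LPS over ctrl/LPS, 1 (reported 5) for RNAPII-pS2 in the difference of LPS responses, 3 (reported 15) for p65 in ctrl/LPS over ctrl/ctrl, 2 (reported 12) for p65 in IL-4 PT/LPS over IL-4 PT/ctrl, and the log2 change turned to −0.66 (3.17) for Rpl36a RNAPII-pS5 in IL-4 PT/LPS over ctrl/LPS, −1.26 (1.57) for Rpl10a RNAPII-pS2 in IL-4 PT/ctrl over ctrl/ctrl, −0.21 (1.62) for Rpl19 RNAPII-pS2 in IL-4 PT/LPS over ctrl/LPS. With the setting "floor 4 times as high", the count of called members was 26 (reported 15) for H3K27Ac at 1 hr, 1 (reported 0) for HDAC2 at 1 hr, 1 (reported 0) for RNAPII-pS5 in the difference of LPS responses, 7 (reported 3) for RNAPII-pS2 in IL-4 PT/LPS over ctrl/LPS, 2 (reported 5) for RNAPII-pS2 in the difference of LPS responses, 38 (reported 15) for p65 in ctrl/LPS over ctrl/ctrl, 0 (reported 3) for p65 in IL-4 PT/ctrl over ctrl/ctrl, 22 (reported 5) for p65 in IL-4 PT/LPS over ctrl/LPS, 33 (reported 12) for p65 in IL-4 PT/LPS over IL-4 PT/ctrl, 18 (reported 1) for p65 in the difference of LPS responses, 1 (reported 0) for RNAPII-pS2 at 1 hr past the 3′ end, 26 (reported 9) for RNAPII-pS5 in ctrl/LPS over ctrl/ctrl past the 3′ end, 25 (reported 10) for RNAPII-pS5 in IL-4 PT/LPS over IL-4 PT/ctrl past the 3′ end, and the log2 change turned to 0.13 (−1.86) for Rps27l RNAPII-pS5 in ctrl/LPS over ctrl/ctrl, −0.17 (1.66) for Rps27l RNAPII-pS5 in IL-4 PT/LPS over ctrl/LPS, −0.19 (1.81) for Rpl37 RNAPII-pS2 in IL-4 PT/LPS over IL-4 PT/ctrl, −0.93 (1.07) for Rpl27a p65 in ctrl/LPS over ctrl/ctrl, −0.66 (1.34) for Rpl37a p65 in ctrl/LPS over ctrl/ctrl, −0.27 (1.73) for Rps23 p65 in ctrl/LPS over ctrl/ctrl, −0.26 (1.74) for Rps27a p65 in ctrl/LPS over ctrl/ctrl, −0.16 (1.76) for Rpl14 p65 in IL-4 PT/LPS over ctrl/LPS, −0.45 (1.21) for Rpl6 p65 in IL-4 PT/LPS over ctrl/LPS, −0.45 (1.24) for Rpl7l1 p65 in IL-4 PT/LPS over ctrl/LPS, −0.05 (1.95) for Rps4y2 p65 in IL-4 PT/LPS over ctrl/LPS, −0.16 (1.84) for Rpl37a p65 in IL-4 PT/LPS over IL-4 PT/ctrl. With the setting "highest peak", the count of called members was 2 (reported 0) for p300 at 1 hr, 1 (reported 0) for RNAPII-pS5 in the difference of LPS responses, 8 (reported 5) for RNAPII-pS2 in ctrl/LPS over ctrl/ctrl, 6 (reported 3) for RNAPII-pS2 in IL-4 PT/LPS over ctrl/LPS. With the setting "quantile normalization", the count of called members was 1 (reported 0) for p300 at 1 hr, 7 (reported 15) for p65 in ctrl/LPS over ctrl/ctrl, 1 (reported 5) for p65 in IL-4 PT/LPS over ctrl/LPS, 2 (reported 1) for p65 in the difference of LPS responses, 13 (reported 22) for RNAPII-pS2 in IL-4 PT/LPS over ctrl/LPS past the 3′ end, 4 (reported 9) for RNAPII-pS5 in ctrl/LPS over ctrl/ctrl past the 3′ end. With the setting "no centring", the count of called members was 10 (reported 6) for RNAPII-pS5 in IL-4 PT/LPS over ctrl/LPS, 1 (reported 0) for RNAPII-pS5 in the difference of LPS responses, 9 (reported 5) for p65 in IL-4 PT/LPS over ctrl/LPS, 8 (reported 1) for p65 in the difference of LPS responses, 35 (reported 22) for RNAPII-pS2 in IL-4 PT/LPS over ctrl/LPS past the 3′ end, and the log2 change turned to 0.24 (−1.28) for Rpl31 p65 in ctrl/LPS over ctrl/ctrl, 0.27 (−1.25) for Rps12 p65 in ctrl/LPS over ctrl/ctrl, 1.33 (−0.78) for Rpl22l1 p65 in IL-4 PT/LPS over IL-4 PT/ctrl, 0.66 (−1.45) for Rps12 p65 in IL-4 PT/LPS over IL-4 PT/ctrl, 0.37 (−1.74) for Rps3a1 p65 in IL-4 PT/LPS over IL-4 PT/ctrl. With the setting "peak in at least 2 of the 4 samples compared", the count of called members was 9 (reported 15) for p65 in ctrl/LPS over ctrl/ctrl, 5 (reported 3) for p65 in IL-4 PT/ctrl over ctrl/ctrl. With the setting "1000 bases", the count of called members was 3 (reported 0) for RNAPII-pS2 at 1 hr past the 3′ end, 3 (reported 6) for RNAPII-pS2 in ctrl/LPS over ctrl/ctrl past the 3′ end, 5 (reported 29) for RNAPII-pS2 in IL-4 PT/ctrl over ctrl/ctrl past the 3′ end, 4 (reported 22) for RNAPII-pS2 in IL-4 PT/LPS over ctrl/LPS past the 3′ end, 4 (reported 8) for RNAPII-pS2 in IL-4 PT/LPS over IL-4 PT/ctrl past the 3′ end, 2 (reported 9) for RNAPII-pS5 in ctrl/LPS over ctrl/ctrl past the 3′ end, 5 (reported 17) for RNAPII-pS5 in IL-4 PT/ctrl over ctrl/ctrl past the 3′ end, 5 (reported 20) for RNAPII-pS5 in IL-4 PT/LPS over ctrl/LPS past the 3′ end, 4 (reported 10) for RNAPII-pS5 in IL-4 PT/LPS over IL-4 PT/ctrl past the 3′ end. With the setting "no other gene in the window", the count of called members was 3 (reported 6) for RNAPII-pS2 in ctrl/LPS over ctrl/ctrl past the 3′ end, 19 (reported 29) for RNAPII-pS2 in IL-4 PT/ctrl over ctrl/ctrl past the 3′ end, 5 (reported 8) for RNAPII-pS2 in IL-4 PT/LPS over IL-4 PT/ctrl past the 3′ end, 5 (reported 9) for RNAPII-pS5 in ctrl/LPS over ctrl/ctrl past the 3′ end, 10 (reported 17) for RNAPII-pS5 in IL-4 PT/ctrl over ctrl/ctrl past the 3′ end.

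Leaving out each sample in turn gave counts of 0 to 0 (reported 2) for RNAPII-pS5 at 1 hr, 0 to 3 (reported 15) for H3K27Ac at 1 hr, 2 to 9 (reported 9) for RNAPII-pS5 in ctrl/LPS over ctrl/ctrl, 0 to 4 (reported 3) for RNAPII-pS5 in IL-4 PT/ctrl over ctrl/ctrl, 0 to 5 (reported 6) for RNAPII-pS5 in IL-4 PT/LPS over ctrl/LPS, 0 to 4 (reported 4) for RNAPII-pS5 in IL-4 PT/LPS over IL-4 PT/ctrl, 1 to 6 (reported 5) for RNAPII-pS2 in ctrl/LPS over ctrl/ctrl, 6 to 10 (reported 11) for RNAPII-pS2 in IL-4 PT/ctrl over ctrl/ctrl, 0 to 3 (reported 3) for RNAPII-pS2 in IL-4 PT/LPS over ctrl/LPS, 5 to 9 (reported 8) for RNAPII-pS2 in IL-4 PT/LPS over IL-4 PT/ctrl, 0 to 0 (reported 5) for RNAPII-pS2 in the difference of LPS responses, 7 to 15 (reported 15) for p65 in ctrl/LPS over ctrl/ctrl, 0 to 3 (reported 3) for p65 in IL-4 PT/ctrl over ctrl/ctrl, 0 to 6 (reported 5) for p65 in IL-4 PT/LPS over ctrl/LPS, 5 to 12 (reported 12) for p65 in IL-4 PT/LPS over IL-4 PT/ctrl, 0 to 2 (reported 1) for p65 in the difference of LPS responses, 13 to 27 (reported 29) for RNAPII-pS2 in IL-4 PT/ctrl over ctrl/ctrl past the 3′ end, 10 to 24 (reported 22) for RNAPII-pS2 in IL-4 PT/LPS over ctrl/LPS past the 3′ end, 1 to 9 (reported 8) for RNAPII-pS2 in IL-4 PT/LPS over IL-4 PT/ctrl past the 3′ end, 4 to 8 (reported 9) for RNAPII-pS5 in ctrl/LPS over ctrl/ctrl past the 3′ end, 9 to 17 (reported 17) for RNAPII-pS5 in IL-4 PT/ctrl over ctrl/ctrl past the 3′ end, 3 to 18 (reported 20) for RNAPII-pS5 in IL-4 PT/LPS over ctrl/LPS past the 3′ end, 4 to 12 (reported 10) for RNAPII-pS5 in IL-4 PT/LPS over IL-4 PT/ctrl past the 3′ end.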
